A study of Mus musculus with 12 samples.

Results

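Genes induced by type I interferon were followed in whole lungs of mice that carry a mammary tumour transgene, as a set of 39 named genes out of the 56748 genes of the deposited count table. Of these, 38 were found by name, and Rigi, the RNA sensor RIG-I, was read under its older symbol Ddx58. All 39 passed the filter on low counts, which left 20229 genes for testing. The set was defined by gene name alone, with no measured value in the rule. The names were, however, chosen with earlier results of these data known.

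The lungs came from 3 strains at 4.5 months of age, each represented by 4 RNA-seq libraries. Every strain carries the MMTV-PyMT transgene, a polyoma middle T oncogene that gives mammary tumours with lung metastases, and MMTV-Cre, a recombinase under a promoter active mainly in mammary epithelium. The wild-type group (WT) is MMTV-Cre; MMTV-PyMT and has neither targeted allele. The C3 knockout group (C3 KO) adds the C3Tdt allele and the S1pr1 knockout group (S1pr1 KO) adds S1pr1fl/fl, so in both the deletion is expected in Cre-expressing cells and not in every lung cell. C3 is the central complement protein and S1pr1 a receptor for sphingosine-1-phosphate. Nothing in the labels ties the libraries to separate mice. A p-value therefore measures only the spread between these libraries, which may be technical.

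Each library held between 32274797 and 53063470 counts. Expression is given as CPM, counts scaled to a common library total, after edgeR's TMM scaling, or as the deposited FPKM, which is also per gene length, where genes are compared with each other. The targeted genes went against the label in 2 libraries. C3 was 475, 465 and 601 CPM in C3 KO 1 to 3, below the WT range of 787 to 1025, but 1416 CPM in the library labelled C3 KO 4. S1pr1 was 132, 142 and 154 CPM in S1pr1 KO 1, 3 and 4, below the WT range of 295 to 491, but 366 CPM in the library labelled S1pr1 KO 2. Results over the set are therefore also given without these 2 libraries. Markers of lung tissue were present throughout, with 8 of 8 alveolar type 2 and 8 of 8 endothelial markers past the filter.

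Type I interferons are cytokines released when a cell senses foreign or misplaced nucleic acid. They bind a receptor made of Ifnar1 and Ifnar2, whose kinases Jak1 and Tyk2 phosphorylate Stat2, among others. Stat2 joins Irf9 in a complex that binds the interferon-stimulated response element, a short promoter sequence with repeated GAAA, and the genes behind it encode antiviral proteins, sensors of viral RNA and the pathway's own transcription factors. In the lung, epithelial cells, macrophages, monocytes and neutrophils are all able to express them.

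The response element is the sequence feature that the set's name implies, so it was searched for in the 250 bases before the annotated start of each gene, in promoters from RefSeq on GRCm38.p6. This is an older build than the GRCm39 of the deposited tables, and the promoter coordinates below belong to it. Of the 39 genes, 30 had a promoter entry, 6 of them with more than 1 start. GAAANNGAAA, searched on both strands with overlapping matches allowed, was found in 13 of the 30 (43.3%), against 3.46% of all 27025 genes with a promoter entry. In 8 of the 13 there were 2 or more matches before a single start, and in 8 a match began within 100 bases of an annotated start. Ifit1bl1 is among the latter only through a start, 23 bases away, that no reference transcript start matched. Before its other start the match lay 104 bases away. The Stat2 start with a match was not matched by a reference transcript start either. TTCNNNGAA, the core of the element used after interferon gamma, was found in 7 of the 30 (23.3%), against 8.13% of all genes. A match is a description of these letters, not a measured binding site, and the 17 genes without one lack only these letters in this window.

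The stretches around the match nearest to the start are shown for 8 genes whose levels are described below, each 5′ to 3′ on the gene's strand with the matches in capitals. GAAA capitals are matches on the gene's own strand and TTTC capitals are matches on the opposite strand. Ifit1 lies at chr19:34640784-34640833 on the + strand, Ifit3 at chr19:34583387-34583436 (+) and Ifit3b at chr19:34607783-34607832 (+). Isg15 lies at chr4:156200855-156200904 (-), Oas1a at chr5:120907526-120907559 (-) and Oas1g at chr5:120887614-120887645 (-). Bst2 lies at chr8:71537567-71537616 (-) and Rsad2 at chr12:26456543-26456592 (-).
Ifit1: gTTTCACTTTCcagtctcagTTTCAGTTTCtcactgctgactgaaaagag
Ifit3: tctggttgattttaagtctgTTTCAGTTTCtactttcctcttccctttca
Ifit3b: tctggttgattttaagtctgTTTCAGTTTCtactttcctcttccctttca
Isg15: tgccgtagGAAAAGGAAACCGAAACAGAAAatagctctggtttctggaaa
Oas1a: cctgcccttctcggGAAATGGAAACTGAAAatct
Oas1g: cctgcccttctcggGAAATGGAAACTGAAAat
Bst2: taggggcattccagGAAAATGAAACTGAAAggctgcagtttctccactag
Rsad2: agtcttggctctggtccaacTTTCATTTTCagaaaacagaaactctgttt
The Ifit3 and Ifit3b stretches were identical, and that of Oas1g was contained in that of Oas1a. Isg15 carried 3 overlapping matches in a row, the first base of the nearest lying 66 bases before the start, and Oas1a, Oas1g and Bst2 carried 2 in a row. Ifit3 and Ifit3b, and Oas1a and Oas1g, are close relatives, and it is not known how the authors' counting divided reads between such copies, which leaves their separate levels uncertain. The plot of motif positions shows all 13 genes.

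**Figure D1:**
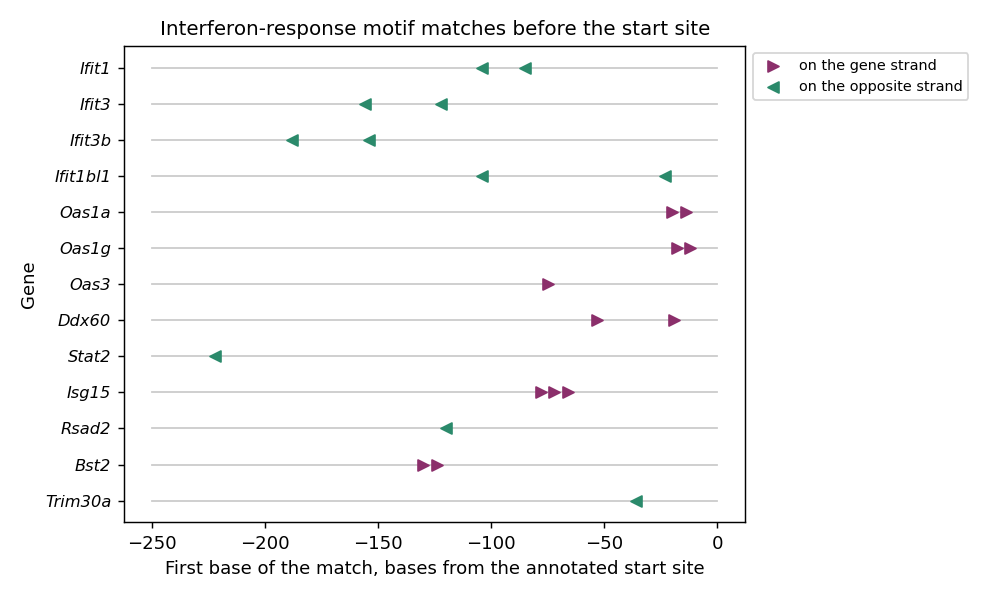
Positions of GAAANNGAAA in the 250 bases before the annotated start of the 13 genes that hold it. The horizontal axis gives the first base of each match in bases from the start, each grey line is 1 gene (Ifit1bl1 has 1 match before each of 2 annotated starts, drawn on 1 line), and triangles show the strand of the match. In 8 of the 13 genes a match begins within 100 bases of an annotated start, for Ifit1bl1 at only 1 of its starts.

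Across the 3 genotypes no member passed the test. With edgeR's quasi-likelihood test, Benjamini-Hochberg adjustment over all 20229 genes and a threshold of 0.05, 0 of 39 were called in C3 KO against WT, where 0.00989% of all genes were called. 0 of 39 were called in S1pr1 KO against WT, where 1.35% of all genes were called, and 0 of 39 in S1pr1 KO against C3 KO, where 0% were. At an unadjusted p under 0.05 the counts were 5, 1 and 5 of 39, beside 10.96%, 18.05% and 12.05% of all genes. DESeq2 called 0, 0 and 1 member, beside 0.85%, 6.32% and 1.57% of all genes, and limma voom 0 in each, beside 0.104%, 4.59% and 0.178% of all genes. The median standard error of a member's log2 fold change was 0.17 in every comparison, against 0.15 for all genes, so small differences were not detectable in this design.

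What did vary was the library. WT 1 was the highest WT library for 35 of 39 genes, against 27.3% of all genes. WT 3 was the lowest for 26, against 28.3% of all genes. C3 KO 2 was the highest of its group for 28 genes, against 24.3% of all genes. The library labelled C3 KO 4 was the lowest for 25, against 31.8% of all genes. S1pr1 KO 3 was the highest of its group for 36 genes, against 20.6% of all genes. The library labelled S1pr1 KO 2 was the lowest for 32, against 32.5% of all genes. Over all 12 libraries S1pr1 KO 3 was highest for 18 genes and the library labelled C3 KO 4 lowest for 16, against 4.87% and 12.5% of all genes.

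The mean log2 CPM over the 39 genes was 4.96, 4.63, 4.24 and 4.37 in WT 1 to 4. It was 4.34, 4.78, 4.74 and 4.16 in C3 KO 1 to 4, and 4.599, 4.23, 4.98 and 4.604 in S1pr1 KO 1 to 4. Each genotype thus held libraries high and low in interferon response genes, and the 3 ranges overlapped over most of their length. The median spread between libraries of a group was 0.28 on the log2 CPM scale for the 39 genes and 0.21 for all genes tested. The share of a gene's variance that lay between genotypes had a median of 12.2% for the 39 genes and 22.8% for all genes. With 3 group means fitted to 12 libraries, part of the variance lies between groups even where genotype has no effect. The heat map by library shows the columns of high and low libraries inside each genotype.

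**Figure D2:**
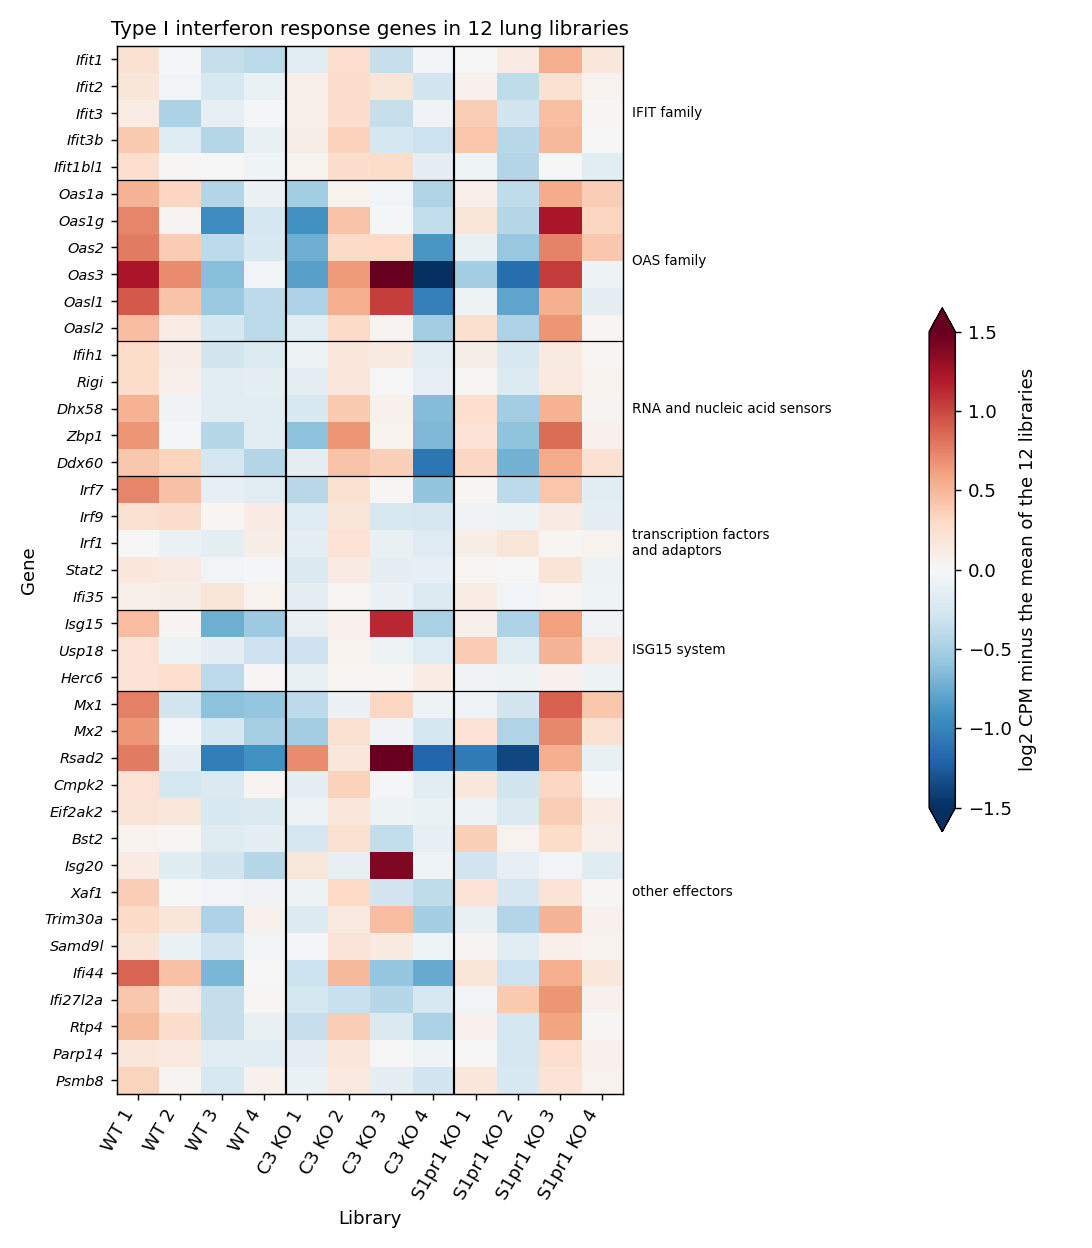
Heat map of the 39 genes (vertical axis, grouped by role) in the 12 libraries (horizontal axis, with lines between genotypes). Colour gives log2 CPM minus the gene's mean over the 12 libraries, and colours stop at 1.5 in either direction. WT 1, C3 KO 2 and S1pr1 KO 3 are mostly red, and WT 3 and the library labelled C3 KO 4 mostly blue, as is the library labelled S1pr1 KO 2.

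Beginning with the inducers, transcripts of the interferons themselves were almost absent. The table lists 20 type I and type III interferon genes, and 14 of them had a count of 0 in all 12 libraries. The other 6 reached at most 4 counts in any library. Ifnb1, the interferon most often induced first, had 3 counts in WT 1, 1 in the library labelled C3 KO 4 and 0 in the other 10. Since 3 counts correspond to between 0.0568 and 0.0891 CPM in these libraries, a lower level of ligand transcript could not be seen. This limit covers counting error only.

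The receptor and its kinases were expressed evenly. Ifnar1, the first receptor chain, lay at 82.7 to 108 CPM in WT, 84.3 to 99.8 in C3 KO and 73.5 to 94.2 in S1pr1 KO. Ifnar2, the other chain, lay at 60.02 to 72.3, 52.6 to 69.1 and 57.4 to 68.4 CPM in the same order. Jak1 lay between 216 and 282 CPM and Tyk2 between 69.0 and 84.6 CPM over all 12 libraries. Of 11 receptor and JAK-STAT genes none was called in any comparison by edgeR, DESeq2 or limma voom, and none had an unadjusted p under 0.05.

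Among the transcription factors and adaptors, Irf7, the factor that amplifies interferon production, was 48.7, 40.0, 26.9 and 26.1 CPM in WT 1 to 4. It was 22.01, 34.5, 29.8 and 19.6 CPM in C3 KO, and 30.0, 22.4, 39.4 and 26.3 CPM in the S1pr1 KO group. WT 1 and WT 2 were high, and the groups overlapped. In C3 KO against WT Irf7 differed by -0.42 on the log2 scale (SE 0.24, edgeR adjusted p = 0.554).

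Irf9, the DNA-binding subunit of the interferon complex, was 80.4, 81.9, 70.0 and 74.7 CPM in WT. It was 59.8, 77.8, 58.0 and 57.6 CPM in C3 KO, and 66.0, 65.0, 74.4 and 62.4 CPM in the S1pr1 KO group. C3 KO 2 lay inside the WT range and the other 3 C3 KO libraries below it. Its log2 fold change was -0.28 in C3 KO against WT (SE 0.10, edgeR adjusted p = 0.356) and -0.20 in S1pr1 KO against WT (edgeR adjusted p = 0.315).

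Ifi35, an interferon-induced leucine zipper protein, was the steadiest gene of the set. It lay at 46.1, 46.4, 49.6 and 45.3 CPM in WT, 39.8, 44.3, 41.1 and 37.8 in C3 KO, and 47.2, 42.4, 44.2 and 41.7 in the S1pr1 KO group. All 4 C3 KO libraries lay below all 4 WT libraries, the only member without overlap in that comparison (1 of 39, where 6.09% of all genes did not overlap). The log2 fold change was -0.20 in C3 KO against WT (SE 0.062, edgeR adjusted p = 0.327), the lowest p of the set in that comparison, and -0.09 in S1pr1 KO against WT (edgeR adjusted p = 0.464).

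Stat2, which forms the interferon complex with Irf9, was 99.1, 97.2, 86.7 and 87.0 CPM in WT, 76.9, 96.7, 80.2 and 81.8 in C3 KO, and 91.0, 89.1, 102 and 84.7 in the S1pr1 KO group. Irf1, which also responds to interferon gamma, was 110, 103, 99.4 and 115 CPM in WT, 98.9, 127, 101 and 94.8 in C3 KO, and 116, 123, 111 and 113 in the S1pr1 KO group. The highest library was 1.32 times the lowest for Stat2 and 1.34 times for Irf1, and their groups overlapped.

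The IFIT genes encode proteins that bind foreign RNA. Ifit1, which recognises unmethylated RNA caps, was 25.04, 21.1, 16.8 and 16.2 CPM in WT, 19.0, 25.5, 16.9 and 20.8 in C3 KO, and 21.5, 23.3, 31.2 and 23.8 in the S1pr1 KO group. S1pr1 KO 3 was above every other library. In S1pr1 KO against WT Ifit1 differed by 0.33 on the log2 scale (SE 0.17, edgeR adjusted p = 0.321).

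Ifit3, its binding partner, was 62.8, 41.9, 53.6 and 57.6 CPM in WT, 61.8, 70.1, 45.9 and 56.1 in C3 KO, and 75.3, 48.3, 80.1 and 59.5 in the S1pr1 KO group. S1pr1 KO 1 and 3 were the highest of the 12 libraries, and the library labelled S1pr1 KO 2 was lower than 3 of the 4 WT libraries. Against WT, the S1pr1 KO log2 fold change of Ifit3 was 0.29 (SE 0.17, edgeR adjusted p = 0.419).

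Ifit3b, whose printed promoter stretch is the same as that of Ifit3, lay between 11.3 and 21.1 CPM, and Ifit2, another RNA-binding member, between 26.4 and 41.1 CPM over the 12 libraries. Ifit1bl1, an Ifit1-like gene, lay between 4.40 and 5.86 CPM in C3 KO and between 3.58 and 4.86 in S1pr1 KO. Its log2 fold change in S1pr1 KO against C3 KO was -0.28 (SE 0.14, edgeR adjusted p = 0.466). Of the 5 IFIT genes 5 were above WT by value in C3 KO and 4 in S1pr1 KO, and none was called.

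The OAS genes encode synthases that make a second messenger, 2-5A, on double-stranded RNA, and their levels spread more between libraries. Oas2 was 37.3, 28.3, 16.6 and 18.5 CPM in WT, 13.04, 26.5, 26.8 and 11.8 in C3 KO, and 20.1, 14.6, 36.5 and 28.8 in the S1pr1 KO group. The groups overlapped, with the highest library 3.15 times the lowest.

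Oas1a was 14.5, 12.8, 7.56 and 9.601 CPM in WT, 7.20, 10.6, 9.94 and 7.498 in C3 KO, and 10.8, 7.87, 15.1 and 13.2 in the S1pr1 KO group. WT 1 and S1pr1 KO 3 were its 2 highest libraries. Oas3, the member with the longest product, ran from 1.56 CPM in the library labelled C3 KO 4 to 21.4 CPM in C3 KO 3, a ratio of 13.7 inside 1 genotype. Oas1g, the gene of lowest FPKM in the set, ran from 1.14 to 5.07 CPM. Oasl1 and Oasl2, which are OAS-like, ran from 1.84 to 7.69 and from 44.3 to 101 CPM. Of the 6 OAS genes, 1 was higher by value in C3 KO against WT and 3 in S1pr1 KO against WT, and none was called.

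Sensors of nucleic acid give the cell its first signal of infection. Rigi, which detects short double-stranded RNA, was 86.4, 75.5, 64.1 and 65.3 CPM in WT, 65.1, 80.5, 71.6 and 65.5 in C3 KO, and 72.3, 62.1, 79.4 and 74.3 in the S1pr1 KO group. Ifih1, which encodes MDA5 for long double-stranded RNA, lay between 37.2 and 54.7 CPM over all libraries. Zbp1, a sensor of Z-form nucleic acid, was 17.5, 10.9, 8.17 and 9.85 CPM in WT, 7.20, 17.4, 11.4 and 6.88 in C3 KO, and 12.8, 7.23, 19.7 and 11.5 in the S1pr1 KO group. The highest library of each genotype was WT 1, C3 KO 2 and S1pr1 KO 3 for Rigi and for Zbp1 alike. Dhx58, the regulator LGP2, lay between 7.52 and 16.9 CPM, and the helicase gene Ddx60 between 5.04 and 15.6 CPM. None of the 5 sensors was called.

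In the ISG15 system, Isg15 encodes a small ubiquitin-like protein that is attached to other proteins. It was 20.6, 15.4, 8.99 and 10.2 CPM in WT, 13.9, 15.7, 32.8 and 10.7 in C3 KO, and 15.8, 10.9, 22.9 and 14.5 in the S1pr1 KO group. C3 KO 3 was the highest library, and without it the C3 KO range lay inside that of WT.

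Usp18, which removes Isg15 and also restrains the receptor, was 23.7, 19.4, 18.6 and 16.4 CPM in WT, 16.4, 21.3, 19.3 and 17.9 in C3 KO, and 26.5, 18.1, 29.2 and 22.6 in the S1pr1 KO group. S1pr1 KO 1 and 3 were above every library of the other groups, and the library labelled S1pr1 KO 2 was within them. For S1pr1 KO the log2 fold change was 0.30 against WT (SE 0.15, edgeR adjusted p = 0.305) and 0.37 against C3 KO (SE 0.15, edgeR adjusted p = 0.359). Herc6, the mouse ligase for Isg15, lay between 15.2 and 23.7 CPM over the 12 libraries.

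Among the remaining effectors, Mx1, a GTPase that blocks influenza virus, was 6.95, 3.40, 2.69 and 2.77 CPM in WT, 3.15, 3.89, 5.14 and 3.92 in C3 KO, and 3.96, 3.40, 7.62 and 5.49 in the S1pr1 KO group. Mx2, its relative, was 6.04, 3.79, 3.19 and 2.72 CPM in WT, 2.69, 4.51, 3.69 and 3.20 in C3 KO, and 4.47, 2.81, 6.32 and 4.51 in the S1pr1 KO group. For both, WT 1 and S1pr1 KO 3 were the 2 highest libraries of the 12.

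Rsad2, which encodes the antiviral enzyme viperin, had the widest range of the set. It was 14.4, 7.54, 4.07 and 4.44 CPM in WT, 13.6, 9.43, 100.4 and 3.66 in C3 KO, and 4.05, 3.25, 12.2 and 7.75 in the S1pr1 KO group. A single library, C3 KO 3, stood far above the rest, and the other 11 lay between 3.25 and 14.4 CPM. Its log2 fold change was 2.06 in C3 KO against WT (SE 0.87, edgeR adjusted p = 0.421) and -2.23 in S1pr1 KO against C3 KO (SE 0.87, edgeR adjusted p = 0.342). Without C3 KO 3 these values were 0.23 and -0.39. Cmpk2, a mitochondrial nucleotide kinase that is the neighbour of Rsad2 on chromosome 12 with a gap of 12751 bases, was 22.3 CPM in C3 KO 3 and 20.2 to 29.0 CPM in the other C3 KO libraries.

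Isg20, an interferon-induced RNA exonuclease, had the same outlying library. It was 41.1, 33.3, 31.2 and 28.1 CPM in WT, 42.6, 34.6, 99.4 and 36.5 in C3 KO, and 30.9, 34.7, 36.7 and 33.2 in the S1pr1 KO group. The log2 fold change was 0.67 in C3 KO against WT (SE 0.28, edgeR adjusted p = 0.420) and -0.65 in S1pr1 KO against C3 KO (SE 0.28, edgeR adjusted p = 0.385), and without C3 KO 3 it was 0.19 and -0.17. C3 KO 3 also held the most red-cell and neutrophil RNA: the summed CPM of 7 erythroid markers was 24729, against 961 to 4465 in the other 11 libraries. The summed CPM of 8 neutrophil markers was 1285, against 33.4 to 452 in the other 11. The part of these cells in the Rsad2 and Isg20 values was not tested.

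Bst2, which encodes tetherin, a membrane protein that holds budding virus at the cell surface, had the highest FPKM of the set (97.2 averaged over the 12 libraries). It was 90.1, 87.9, 77.1 and 78.7 CPM in WT, 73.3, 103, 67.7 and 79.9 in C3 KO, and 112, 90.1, 106 and 92.2 in the S1pr1 KO group. The lowest S1pr1 KO library and the highest WT library were both at 90.1 CPM, and the other S1pr1 KO libraries lay above WT. The log2 fold change was 0.26 against WT (SE 0.12, edgeR adjusted p = 0.272), the lowest p of the set in that comparison, and 0.31 against C3 KO (SE 0.12, edgeR adjusted p = 0.337).

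Ifi27l2a, a small interferon-induced membrane protein, was second by FPKM (94.9). It was 56.9, 46.6, 33.6 and 43.5 CPM in WT, 35.8, 34.0, 31.9 and 36.3 in C3 KO, and 41.7, 56.2, 68.1 and 45.0 in the S1pr1 KO group. Every S1pr1 KO library was above every C3 KO library, the only member without overlap in that comparison (1 of 39, where 6.4% of all genes did not overlap). The log2 fold change in S1pr1 KO against C3 KO was 0.61 (SE 0.16, edgeR adjusted p = 0.224). It was the only member that DESeq2 called, with an adjusted p of 0.0357, where DESeq2 called 1.57% of all genes. In C3 KO against WT the log2 fold change was -0.39 (SE 0.16, edgeR adjusted p = 0.421).

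Psmb8, a subunit of the immunoproteasome that cuts peptides for MHC class I, was 75.5, 61.6, 50.4 and 62.6 CPM in WT, 55.6, 66.4, 53.9 and 48.9 in C3 KO, and 66.7, 51.1, 68.9 and 61.9 in the S1pr1 KO group, with overlap between all groups. Eif2ak2, which encodes the RNA-activated kinase PKR, lay between 33.0 and 49.8 CPM over the 12 libraries. Parp14, an ADP-ribosyltransferase, lay between 101 and 142 CPM and Samd9l, a restriction factor for poxviruses, between 71.8 and 101 CPM. Ifi44 ran from 6.12 to 18.9 CPM, Rtp4 from 17.7 to 37.2, Trim30a from 32.3 to 65.6 and Xaf1 from 26.5 to 44.4 CPM. The highest of the 12 libraries was WT 1 or S1pr1 KO 3 for each of these last 4. The dot plots by genotype show 12 of the genes.

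**Figure D3:**
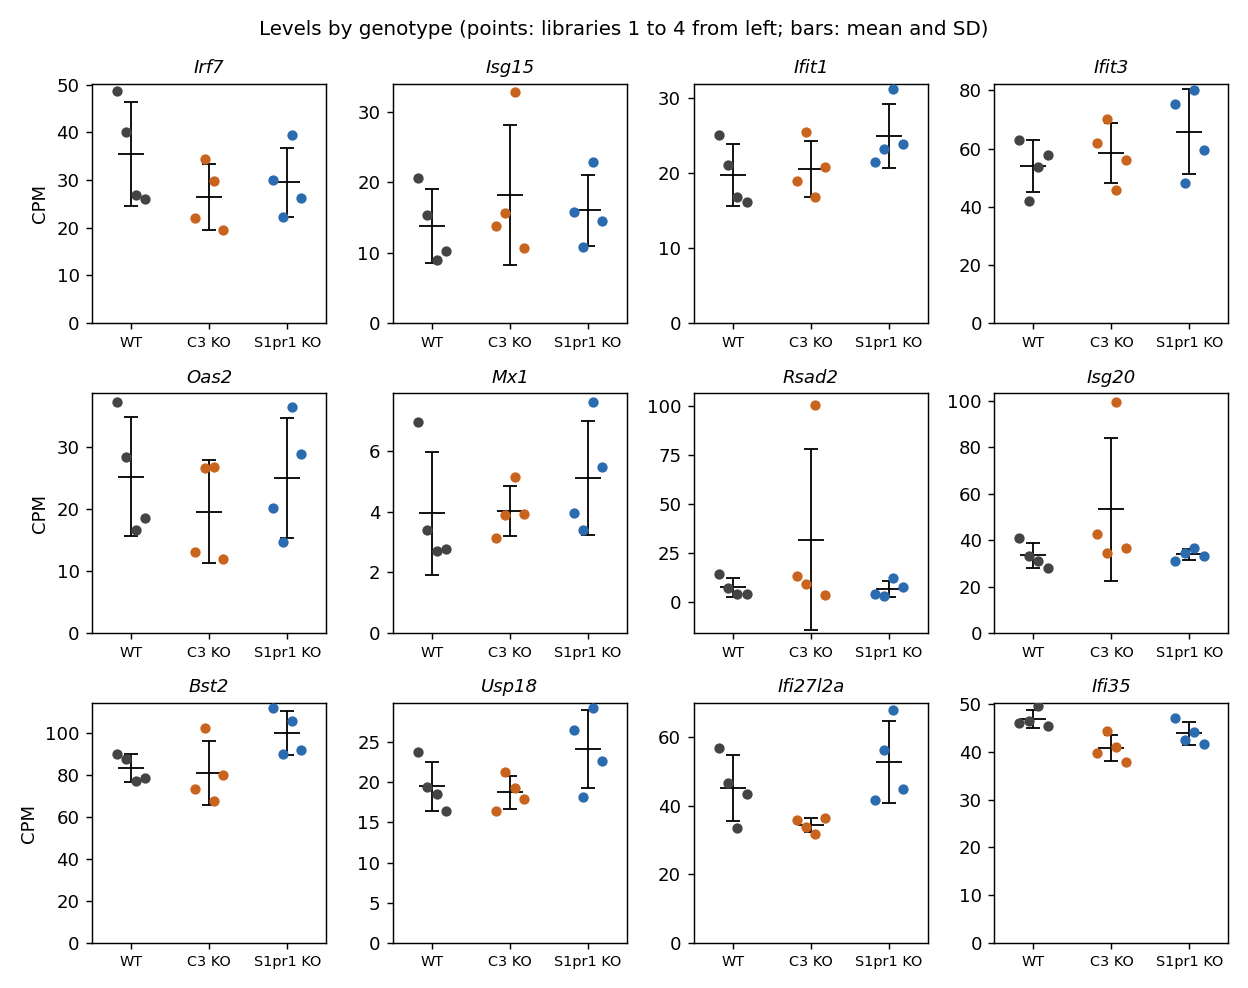
CPM of 12 genes by genotype (horizontal axis), with 1 point per library in numbered order from the left and bars for the mean and SD of 4 libraries. The axes start at 0 except for Rsad2, whose C3 KO SD reaches below 0. C3 KO 3 stands alone at 100.4 CPM for Rsad2 and 99.4 CPM for Isg20. For all 12 genes the points of at least 2 genotypes overlap. Those of C3 KO and WT do not overlap for Ifi35, nor those of S1pr1 KO and C3 KO for Ifi27l2a.

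As a set, 13 of 39 genes were higher by value in C3 KO than in WT. Their log2 fold changes had a median of -0.04 and a range of -0.47 to 2.06, where 49.8% of all genes were higher and the median was -0.00. The count rested on single libraries: it was 23 without C3 KO 1, 22 without the library labelled C3 KO 4, 26 without WT 1, and 8 without C3 KO 2 or without WT 3. It was 22 without both libraries that went against their label. The median without those 2 was 0.03, so the sign of this comparison changed with single libraries.

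In S1pr1 KO 25 of 39 were higher than in WT, with a median of 0.05 and a range of -0.43 to 0.42, where 49.8% of all genes were higher. No gene was without overlap between these groups (0 of 39, where 11.3% of all genes did not overlap). The count was 11 without S1pr1 KO 3, 16 without WT 3, 33 without WT 1, and 31 without both libraries that went against their label, with a median of 0.14. The direction of this comparison also changed with single libraries.

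In S1pr1 KO 29 of 39 were higher than in C3 KO, with a median of 0.14 and a range of -2.23 to 0.61, where 50.7% of all genes were higher. The count stayed between 22 and 34 when any 1 library was left out or the processing was changed, and was 30 without both libraries that went against their label. The 3 comparisons share their groups, so they are not independent of each other. The plot of fold changes shows each value with its standard error.

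**Figure D4:**
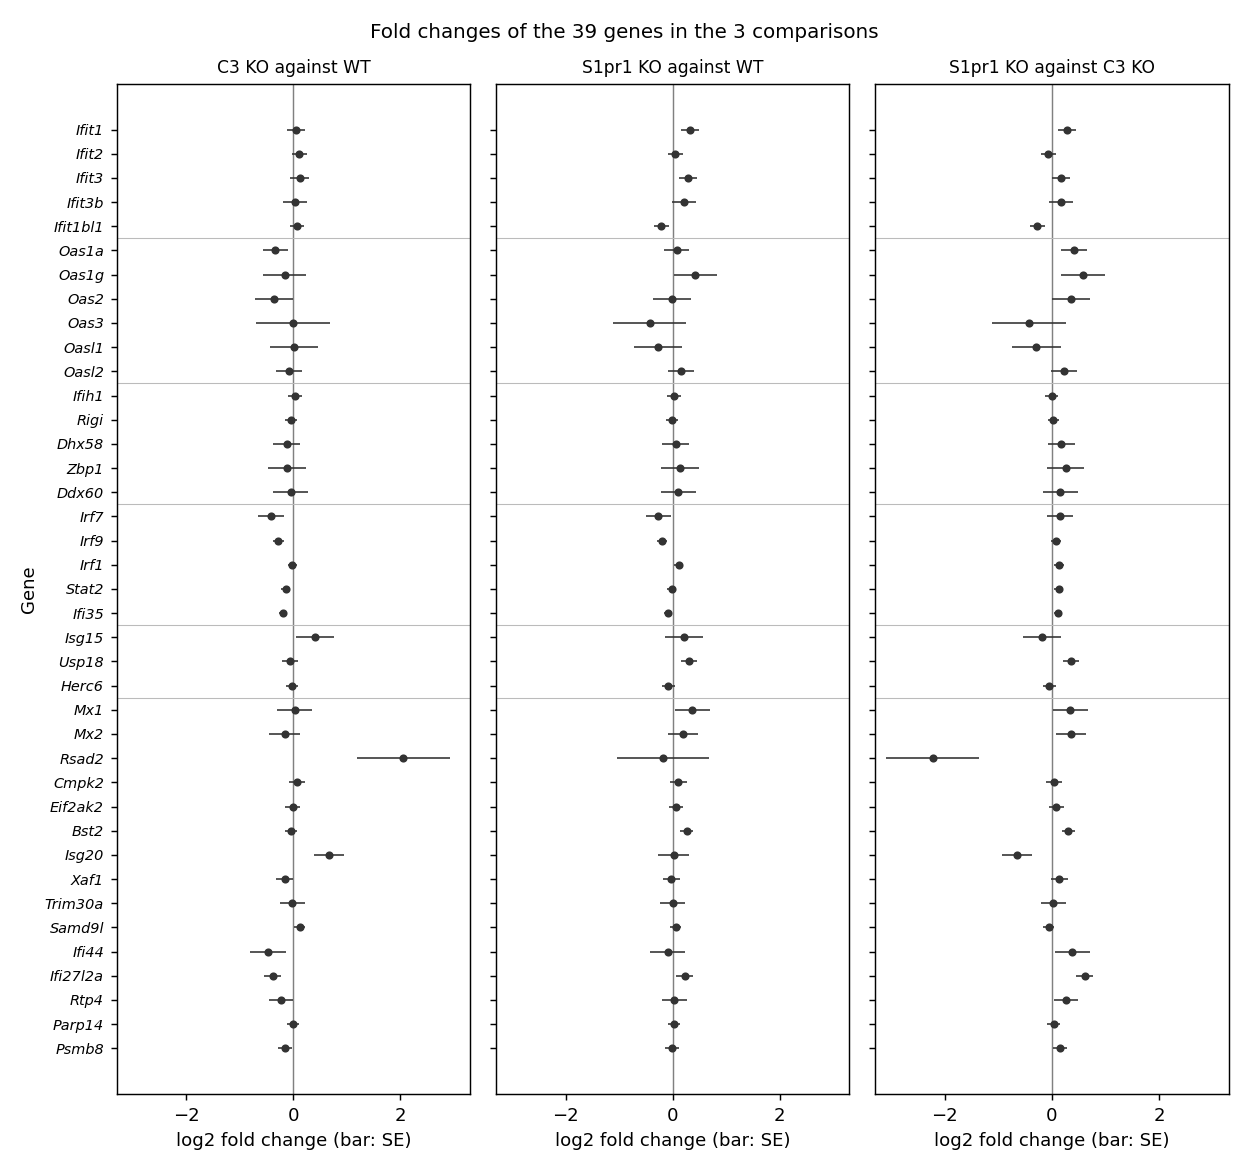
log2 fold changes of the 39 genes (vertical axis, grouped by role) in the 3 comparisons, from edgeR. Points are fold changes and bars 1 SE to either side. Rsad2 in C3 KO against WT (2.06) and in S1pr1 KO against C3 KO (-2.23) lie outside the band of the rest, and no gene passed the adjusted threshold.

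Markers of several immune cell types differed between the same libraries. The mean log2 CPM of 8 monocyte markers was 6.17, 5.59, 5.003 and 5.60 in WT 1 to 4, 5.48, 5.81, 6.05 and 5.004 in C3 KO, and 5.42, 4.97, 5.98 and 5.42 in the S1pr1 KO group. The libraries with the highest interferon set in each genotype, WT 1, C3 KO 2 and S1pr1 KO 3, had 6.17, 5.81 and 5.98, and the libraries with the lowest, WT 3 and those labelled C3 KO 4 and S1pr1 KO 2, had 5.003, 5.004 and 4.97. In C3 KO the highest monocyte value was that of C3 KO 3. The 8 markers include Ms4a4c, which is also listed among the further interferon-stimulated genes below. This measure is therefore not fully separate from the interferon response. The summed CPM of the same 8 markers had another order in WT, with 2569 in WT 1 and 3484 in WT 3. Most of that sum was Ace, which lung endothelium also expresses and which was 1665 CPM in WT 1 and 2658 CPM in WT 3.

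The mean log2 CPM of 8 B cell markers was 4.73, 4.38, 3.37 and 4.35 in WT, 4.59, 4.73, 4.77 and 2.89 in C3 KO, and 2.33, 2.33, 4.10 and 2.51 in the S1pr1 KO group. That of 10 T cell markers was 2.63 in WT 1 and 1.92 in WT 3, and 2.00 in S1pr1 KO 3 where the others of its group had 0.47 to 1.18. That of 8 plasmacytoid dendritic cell markers, a cell type known for interferon production, was 3.42 in WT 1 and 2.58 in WT 3. WT 1 and S1pr1 KO 3 were thus the highest libraries of their genotype in B cell, T cell and plasmacytoid dendritic cell markers. WT 3 was the lowest of WT in these. The same held for monocyte markers by mean log2 CPM. In C3 KO, C3 KO 3 was highest in B cell, T cell (2.82) and plasmacytoid dendritic cell markers (3.38). C3 KO 2 had 2.76 in T cell and 2.91 in plasmacytoid dendritic cell markers. In natural killer cell markers S1pr1 KO 3 was the lowest of its group (2.91). WT 1 was again the highest of WT (2.34) and WT 3 the lowest (1.14). In alveolar macrophage markers S1pr1 KO 3 (5.303) was below the library labelled S1pr1 KO 2 (5.596).

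The summed CPM of the 8 neutrophil markers was 293 to 452 in WT, 33.4 to 1285 in C3 KO and 83.2 to 421 in S1pr1 KO, with the lowest values in the library labelled C3 KO 4 (33.4) and the library labelled S1pr1 KO 2 (83.2). No neutrophil marker was at 0 in any library, though Ly6g, the marker that defines the lineage, was 0.05 CPM in the library labelled C3 KO 4. In bulk tissue, fewer cells of a type and less RNA per cell cannot be told apart, and the part of these cells in the interferon values was not tested.

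**Figure D5:**
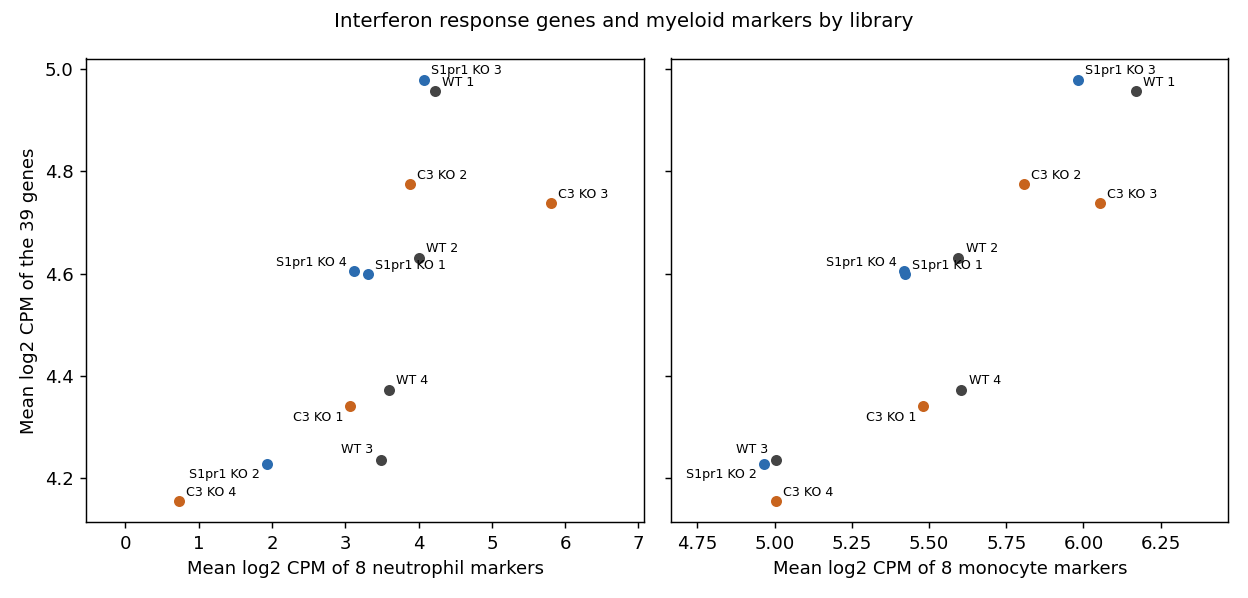
Mean log2 CPM of the 39 genes (vertical axis) against the mean log2 CPM of 8 neutrophil markers (left) and 8 monocyte markers (right). Each point is 1 library, coloured by genotype and named. The monocyte markers include Ms4a4c, which is also listed as an interferon-stimulated gene. The library labelled C3 KO 4 is lowest in the 39 genes (4.16) and in neutrophil markers, and C3 KO 3 is highest in neutrophil markers but not in the 39 genes (4.74).

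Few genes in other parts of the pathway were called. None of 16 genes that lead to interferon induction, of 10 negative regulators and of 11 MHC class I genes was called in any comparison by edgeR, DESeq2 or limma voom. Each of these lists had at most 2 genes with an unadjusted edgeR p under 0.05 in a comparison. Of 72 further interferon-stimulated genes edgeR called 2, both in S1pr1 KO against WT, where 1.35% of all genes were called. In that comparison DESeq2 called 6 of them (6.32% of all genes) and limma voom 3 (4.59%). The DESeq2 calls were Ifi208, Ifi44l, Ly6e, Ly6a and Trim25, all lower in S1pr1 KO, and Gm4951, which was higher. The limma voom calls were Ifi208, Gm4951 and Ifi44l. For Ifi44l, which edgeR did not call, the log2 fold change was -4.19 with DESeq2 (DESeq2 adjusted p = 0.0489). With limma voom it was -4.43 (limma voom adjusted p = 0.0374). DESeq2 also called 1 in C3 KO against WT (Ly6e) and 3 in S1pr1 KO against C3 KO (Ifi208, Apol9a and Apol9b), and limma voom 1 there (Ifi208). Ifi208, a member of the nuclear AIM2-like family, was 24.3, 21.8, 17.2 and 19.3 CPM in WT, 19.6, 22.5, 23.6 and 13.6 in C3 KO, and 12.1, 8.27, 8.37 and 11.99 in the S1pr1 KO group. All S1pr1 KO libraries lay below all WT libraries, and it fell by 1.02 on the log2 scale (edgeR adjusted p = 0.0314).

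Gm4951, a GTPase-like gene, was 3.72, 2.94, 3.22 and 3.13 CPM in WT, 4.54, 9.57, 3.91 and 4.27 in C3 KO, and 10.6, 6.06, 11.2 and 8.34 in the S1pr1 KO group. It rose by 1.48 on the log2 scale in S1pr1 KO against WT (edgeR adjusted p = 0.0329), with no overlap between these groups. Of 22 guanylate-binding and other interferon gamma genes, 18 were higher by value in S1pr1 KO than in WT (49.8% of all genes). Their median log2 fold change was 0.29. An unadjusted edgeR p under 0.05 was found for 4 of the 22, beside 18.05% of all genes. After adjustment edgeR called only Gbp2b, a guanylate-binding GTPase, which was lower in S1pr1 KO than in WT (-5.50, edgeR adjusted p = 0.0429). DESeq2 called Gbp2b in that comparison and in S1pr1 KO against C3 KO. limma voom called it in S1pr1 KO against WT (-5.41, limma voom adjusted p = 0.0393). The edgeR call was lost without both libraries that went against their label (-5.30, edgeR adjusted p = 0.0681), and the fold change was -2.82 with limma on log2(FPKM + 1) (limma adjusted p = 0.0609). Gbp2b was 0.35, 26.9, 0.53 and 17.5 CPM in C3 KO 1 to 4, so the group held 2 libraries near the S1pr1 KO range of 0.25 to 0.55 and 2 near the WT range of 15.6 to 28.0. Ifng, the ligand of that response, did not pass the filter, at 0.06 to 0.38 CPM, and Cxcl10, a chemokine induced by both interferon types, lay between 0.23 and 3.58 CPM.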

How the data were processed

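RNA-seq counts per gene and FPKM values were deposited by the authors for 12 mouse lung libraries, 4 per genotype. Per the submitters' processing notes CASAVA and STAR were used on GRCm39. Tool versions, how reads were counted and by which annotation and strand were not given in the sources used here. The deposited FPKM is per gene length and per scaled library size. Libraries were numbered within a genotype in accession order, which pairs nothing.

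Counts were filtered with filterByExpr, scaled by TMM and fitted in edgeR 4.0.16 (R 4.3.3) with a quasi-likelihood model of 3 group means over all 12 libraries (9 residual degrees of freedom). p-values were adjusted by Benjamini-Hochberg over 20229 genes. The SE of a log2 fold change was derived from its F statistic. CPM is relative to TMM-scaled library size, and log2 CPM used a prior count of 2. DESeq2 1.42.0, limma 3.58.1 on counts and on log2(FPKM + 1) and log2(FPKM + 0.1), other scalings and filters, fits of only 2 groups and leaving out libraries were alternatives. The code was tested on simulated counts.

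The members, the pathway and marker lists and the choice of tests were made with earlier results of these data known, so no test was made over a list. Genes with values in every library are those of lowest p (6 per comparison) and a named core of the pathway, with other members given by range. From the other pathway lists, called genes and a few named ones are given. From the older build only the RefSeq promoters and, to check their starts, reference transcript sequences were used. A gene of the pathway is not reported here.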

Additional observations from a re-analysis of the deposited data

Results flagged for a closer look

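Single libraries stood apart from the other 3 of their genotype for 9 of 126 combinations of gene and genotype, by a gap to the nearest library of more than 0.829 of the group's range. Chance alone gives about 1 in 20. WT 1 stood above the other WT libraries for Dhx58 (16.9 CPM), Mx1 (6.95 CPM) and Xaf1 (44.4 CPM). C3 KO 2 stood above the other C3 KO libraries for Irf9 (77.8 CPM), Eif2ak2 (42.9 CPM) and Gm4951 (9.57 CPM). C3 KO 3 did so for Rsad2 (100.4 CPM) and Isg20 (99.4 CPM). The library labelled S1pr1 KO 2 stood below its group for Samd9l (78.9 CPM).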

How the results depend on the processing

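The count of members called was 0 in C3 KO against WT and in S1pr1 KO against WT under all 23 alternatives, 12 of which left out 1 library. In S1pr1 KO against C3 KO it was 1 with DESeq2 (Ifi27l2a) and 0 under the other 22. The median log2 fold change of the members ranged from -0.14 to 0.07 in C3 KO against WT and from -0.06 to 0.18 in S1pr1 KO against WT. In S1pr1 KO against C3 KO it ranged from 0.03 to 0.23. Each median stayed within the spread between libraries (0.31) of its reported value. That spread is larger than any of the reported medians, so this bound could not show a median to be stable. The medians against WT took both signs. None of the fold changes given for single genes changed sign. Counts of called genes over the whole table moved more: edgeR called 2, 274 and 0 in the 3 comparisons, DESeq2 172, 1279 and 317 and limma voom 21, 928 and 36. In S1pr1 KO against WT the count was 2 without S1pr1 KO 4 and 5 without WT 4. The calls of Gbp2b, Ifi208 and Gm4951 in S1pr1 KO against WT were lost when single WT or S1pr1 KO libraries were left out, Gbp2b with each of the 8. With limma on log2(FPKM + 1) and no filter all 3 were lost (limma adjusted p 0.118, 0.0788 and 0.0913), and Gbp2b also with the filter, with log2(FPKM + 0.1) (limma adjusted p = 0.0605) and without both libraries against their label (edgeR adjusted p = 0.0681). The fold changes kept their direction. The cause was not tested. No paired analysis was possible because the replicate numbers only name libraries in accession order. Depth limits the weakest members most: the lowest member count in a library was 39 (Oas1g) and the median 1065.5.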
